A study of Homo sapiens with 8 samples.

Results

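Retinoid carriers, retinoic acid synthesis enzymes and classic retinoic acid targets were examined in the myeloma line OPM-2 as 9 genes: STRA6, LRAT, CRABP2, ALDH1A1, ALDH1A2, ALDH1A3, TGM2, PLAAT4 and RARRES1. A peak counted for a gene when it overlapped the gene body plus 20 kb on both sides in hg38. By that rule 11 of 47193 peaks with ATRA+POM, 7 of 54279 with POM, 2 of 36742 in the library labelled ATRA and 13 of 50946 with DMSO lay at these genes, which are 9 of 19970 protein-coding genes in the gene table used. OPM-2 is an established human cell line that carries the t(4;14) translocation. The groups were cells grown for 72 h with 1 µM all-trans retinoic acid plus 1 µM pomalidomide (ATRA+POM), with 1 µM pomalidomide alone (POM), with 1 µM all-trans retinoic acid alone (ATRA), or with the solvent DMSO. Each treatment had 1 ChIP-seq library and 1 input library, and the inputs were not used here. The labels do not name the antibody, and the peaks are reported without a named factor. With 1 library per treatment there is no replicate spread to set a difference against, so none was tested, and the intervals given cover counting error alone.

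Cells take up retinol through STRA6, the membrane receptor of the plasma retinol carrier, and LRAT esterifies it for storage. The ALDH1A enzymes oxidise retinaldehyde to retinoic acid, and CRABP2 hands retinoic acid to its nuclear receptors. These receptors bind DNA with retinoid X receptors and change transcription of target genes, among which TGM2 (tissue transglutaminase), PLAAT4 (a phospholipase and acyltransferase first described as a retinoid-induced growth suppressor) and RARRES1 (a retinoid-induced membrane protein) are widely used readouts.

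The lists differed in depth and enrichment. Summit reads, solved from the fold enrichment and p of each peak, had a median of 65 with ATRA+POM, 72 with POM, 23 in the ATRA-labelled list and 78 under DMSO. Depth relative to DMSO was 0.902 for ATRA+POM, 0.927 for POM and 0.133 for the ATRA-labelled library. Peaks were found at all 8 plasma cell marker genes in every list, among them SDC1, TNFRSF17, PRDM1 and XBP1, and at NSD2 and FGFR3. Of all protein-coding genes 59.8% had a peak in all 4 lists. Of 6 genes of other lineages, 2 had a peak with ATRA+POM (67.9% of all genes) and 3 with POM (73.7%). In the ATRA-labelled list 2 had one (62.8%), and 2 under DMSO (72.6%). CD14 and GFAP had a peak in every list, CD3E with POM alone, and MPO, ALB and KRT5 had none in any list. Of the 25210 merged regions with an ATRA-labelled peak, 115 (0.456%) lacked a DMSO peak. The deposited names of the ATRA-labelled and DMSO lists do not carry the initials of their treatment, as those of the other lists do, so both were assigned by the deposited record alone. Whether the ATRA-labelled list comes from ATRA-treated cells was not tested, and that doubt applies to every value given for it.

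The genes were sparsely covered. Of the 9 genes, 4 (RARRES1, STRA6, ALDH1A1 and ALDH1A2) had no peak in any list, against 22.5% of all protein-coding genes, and CRABP2 and PLAAT4 had a peak in all 4 lists, against 59.8% of all genes. At least 1 peak was called for 4 genes with ATRA+POM (67.9% of all genes), for 3 with POM (73.7%), for 2 in the ATRA-labelled list (62.8%) and for 4 with DMSO (72.6%), so each share of the 9 lies below that of all genes. The windows together span 0.699 Mb and held 15.7 peaks per Mb with ATRA+POM, 10.0 with POM, 2.86 in the ATRA-labelled list and 18.6 under DMSO. Over the windows of all genes the density was 26.8 peaks per Mb with ATRA+POM, 30.6 with POM, 23.5 in the ATRA-labelled list and 29.5 under DMSO. Most peaks did not lie on the genes themselves. On the bodies of the 9 genes lay 3 peaks with ATRA+POM, 2 with POM, 0 in the ATRA-labelled list and 2 under DMSO, all of them on TGM2 and PLAAT4.

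**Figure D1:**
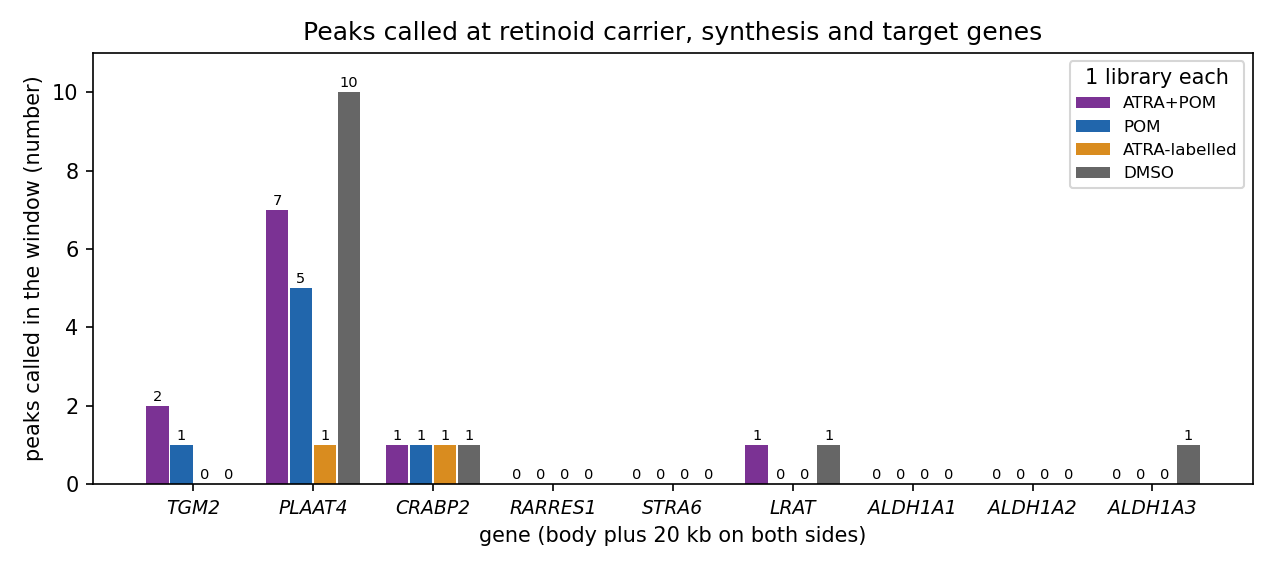
Number of peaks called in the window of each gene (y axis) for the 9 genes (x axis), with 1 bar for each of the 4 libraries and the number above it. PLAAT4 carries most peaks, TGM2 has peaks only with ATRA+POM (2) and POM (1), and 4 genes are at 0 in all 4 lists.

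TGM2 was the gene with peaks in both pomalidomide lists and in no other. It encodes the transglutaminase that cross-links proteins and is one of the most used retinoic acid target genes (chromosome 20, 38127385 to 38168475). Inside the gene body a peak was called with ATRA+POM at chr20:38143501-38144765 and with POM at chr20:38143505-38144781. The ATRA+POM peak had a fold enrichment of 18.4 and the POM peak one of 21.1, above 82.4% of ATRA+POM peaks and 76.2% of POM peaks. The summits had 111 reads with ATRA+POM (exact 95% Poisson interval 91.3 to 134) and 110 with POM (90.4 to 133), so the intervals overlap. Scaled to the depth of the DMSO library these come to 123 reads from ATRA+POM and 119 from POM, where the DMSO list has a 10th percentile of 26 summit reads. Scaled to the ATRA-labelled library they come to 16.3 from ATRA+POM and 15.7 from POM, above that list's 10th percentile of 10. The DMSO and ATRA-labelled peaks nearest to the gene lay 32.6 kb away. A further peak inside TGM2, at chr20:38152114-38152334, was called with ATRA+POM alone, with a fold enrichment of 6.19 and 40 reads (28.6 to 54.5). Scaled to the ATRA-labelled library it would have 5.88 reads, between that list's minimum of 5 and its 10th percentile.

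PLAAT4 held the most peaks (chromosome 11, 63536808 to 63546458). Its window had 7 peaks with ATRA+POM, 5 with POM, 1 in the ATRA-labelled list and 10 under DMSO. The order of these numbers partly follows how peaks were split, since peaks closer than 500 bp merged into 6 with ATRA+POM, 4 with POM, 1 in the ATRA-labelled list and 5 under DMSO, which puts ATRA+POM above DMSO. The peaks form a group around the annotated end of PLAAT4 with the lower coordinate and a group inside the neighbouring family member PLAAT2. The strand of the gene is not in the gene table used, so the first of these is called the lower end, not the start.

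At the lower end of PLAAT4 the ATRA+POM list had 1 broad peak, at chr11:63536565-63537857, at a fold enrichment of 12.3 with 139 reads at its summit (exact 95% Poisson interval 117 to 164). The POM list had 1 peak over nearly the same span, at chr11:63536584-63537789, with a fold enrichment of 6.58 and 80 reads (63.4 to 99.6). The DMSO list had 3 shorter peaks there, with fold enrichments of 3.90, 4.12 and 6.67 and 52, 48 and 56 reads, the last with an interval of 42.3 to 72.7. The read intervals of ATRA+POM do not overlap those of POM or of the strongest DMSO peak, where the ATRA+POM library was the least deep of these 3. The ATRA-labelled list had no peak there. The ATRA+POM reads scaled to its depth would be 20.4, above its 10th percentile of 10. Those of the 3 DMSO peaks would be 6.90, 6.37 and 7.43, below that percentile and above the list's minimum of 5. The summits differed in place as well. The ATRA+POM summit lay at -77 bp from the lower end of PLAAT4, beside the DMSO peak whose summit lay at -89 bp and whose fold enrichment was 3.90. The POM summit lay at 688 bp, beside the strongest DMSO summit at 726 bp.

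Farther out, a region spanning chr11:63535072-63535691 was called with ATRA+POM (fold enrichment 5.53, 75 reads), POM (6.10, 50 reads) and DMSO (5.08, 68 reads). Peaks at chr11:63531767-63532049 (5.29, 50 reads) and chr11:63534446-63534617 (4.25, 37 reads) were called with ATRA+POM alone, and 1 at chr11:63534727-63534995 (3.33, 47 reads) with DMSO alone. The last lies beside the second of the ATRA+POM peaks. All 3 were weak, with fold enrichments above 24.2%, 11.3% and 3.21% of the peaks of their lists. Inside PLAAT2 there were 3 peaks with ATRA+POM, 3 with POM, 1 in the ATRA-labelled list and 5 under DMSO. The strongest of these, at chr11:63563784-63564165 in the DMSO list, was called in every list, at a fold enrichment of 10.3 with ATRA+POM (107 reads), 11.6 with POM (101 reads), 7.66 in the ATRA-labelled list (19 reads) and 14.6 with DMSO (184 reads). It was the only peak of the window in the ATRA-labelled list. That list was also the least deep, at 0.133 of the DMSO depth. Of the 10 DMSO peaks at PLAAT4, scaled to its depth, this one would have 24.4 reads and the next strongest 9.03. The latter is under the 10th percentile of 10 and above the list's minimum of 5. The part of depth in the difference was not tested.

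**Figure D2:**
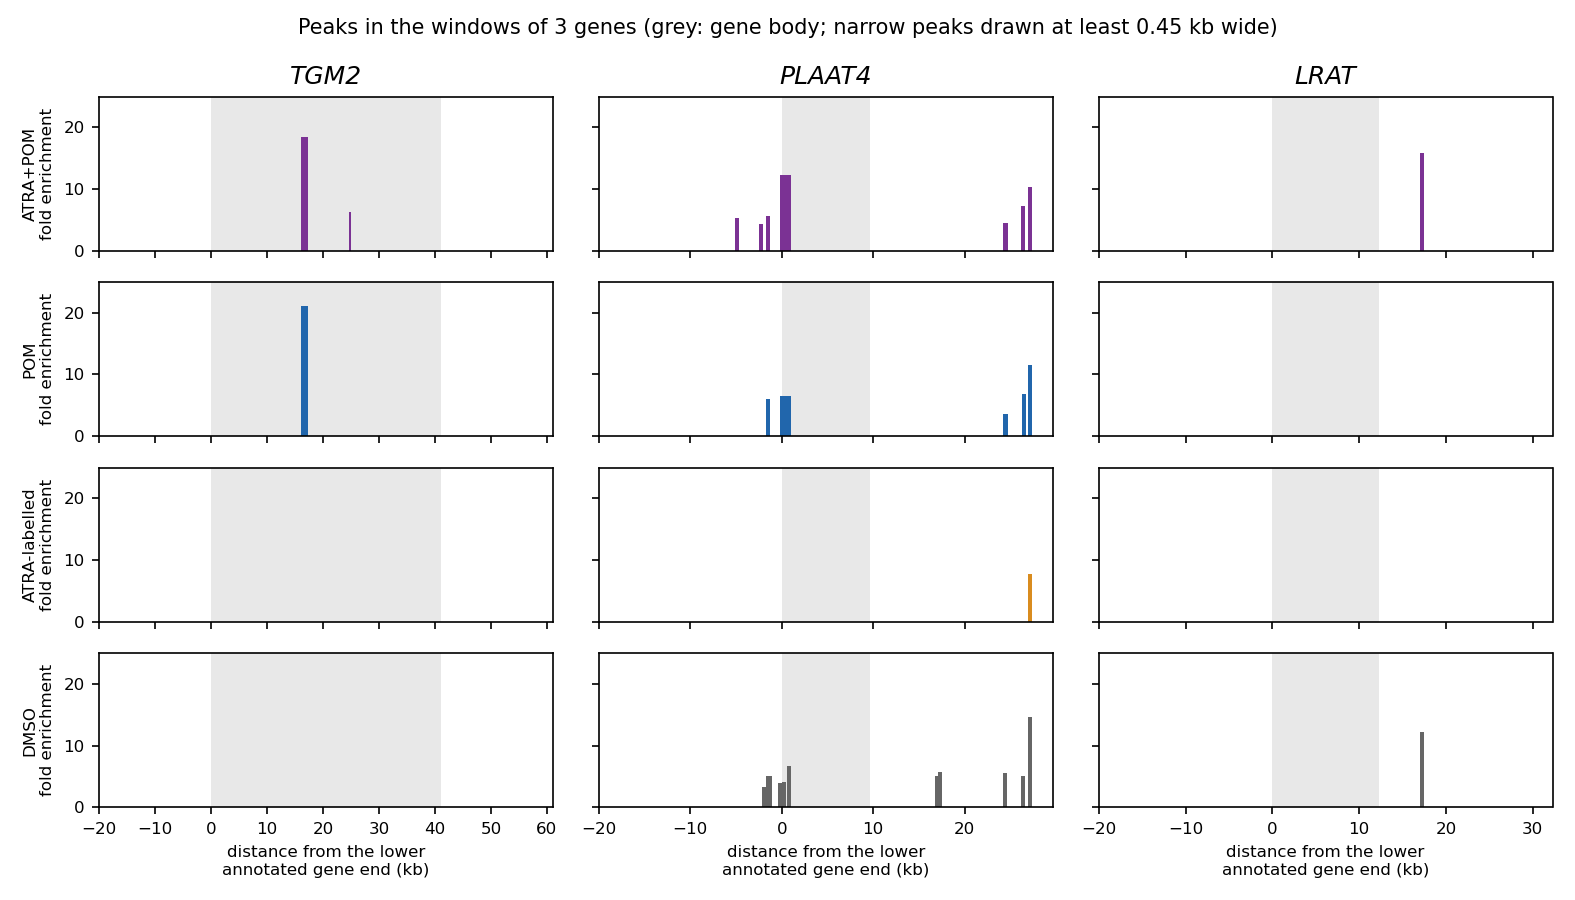
Peaks in the windows of TGM2, PLAAT4 and LRAT (columns) in the 4 lists (rows), drawn by distance from the lower annotated gene end in kb (x axis) with the authors' fold enrichment as height (y axis) and the gene body in grey. The TGM2 peak stands in the ATRA+POM and POM rows, the bar at the lower end of PLAAT4 reaches 12.3 with ATRA+POM and 6.58 with POM, and the LRAT peak stands in the ATRA+POM and DMSO rows.

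RARRES1, the third of the targets (chromosome 3, 158696892 to 158732457), had no peak in its window in any list. The nearest peak to the gene lay 51.3 kb away with ATRA+POM, 51.3 kb with POM, 51.6 kb in the ATRA-labelled list and 51.2 kb under DMSO.

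Among the carriers, CRABP2 (chromosome 1, 156699606 to 156705784) had 1 peak in each list, at the outer edge of its window and inside ISG20L2, a gene for a ribosome-processing exonuclease. It lay 19.5 to 19.7 kb from CRABP2, and in all 4 lists it crosses the window's edge at 156725784, as at chr1:156725315-156725899 with DMSO. Enrichment at it was 6.40-fold with ATRA+POM (87 reads), 9.79-fold with POM (100 reads), 13.9-fold in the ATRA-labelled list (47 reads) and 10.4-fold with DMSO (192 reads). No peak lay on CRABP2 itself. With 50 kb on both sides CRABP2 had 13 peaks with ATRA+POM, 11 with POM, 11 in the ATRA-labelled list and 16 under DMSO, most of them outside the 20 kb window. STRA6 (chromosome 15, 74179466 to 74212259) had no peak in its window or within 50 kb. The nearest lay 79.3 kb from the gene with ATRA+POM, 79.3 kb with POM, 183 kb in the ATRA-labelled list and 79.2 kb under DMSO.

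LRAT, the retinol-esterifying enzyme (chromosome 4, 154740838 to 154753120), had 1 peak with ATRA+POM at chr4:154757897-154758177 and 1 with DMSO at chr4:154757959-154758176, and none with POM or in the ATRA-labelled list. It lay between genes, 4.78 kb above LRAT in the ATRA+POM list. The fold enrichment was 15.9 with ATRA+POM and 12.2 with DMSO, and the summit had 91 reads with ATRA+POM (73.3 to 112) and 68 with DMSO (52.8 to 86.2), so the intervals overlap. Regions called with ATRA+POM and DMSO alone are uncommon, at 1.07% of 67328 merged regions. Scaled to the ATRA-labelled library the summit would have 13.4 reads from ATRA+POM and 9.03 from DMSO, on either side of that list's 10th percentile. The POM library, at 0.927 of the DMSO depth against 0.902 for ATRA+POM, had its peak nearest to LRAT 124 kb away.

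Of the retinaldehyde dehydrogenases, ALDH1A1 and ALDH1A2 had no peak in any list. The peak nearest to ALDH1A1 (chromosome 9, 72900671 to 72953053) lay outside the window at 29.6 kb with ATRA+POM, 29.4 kb with POM, 30.6 kb in the ATRA-labelled list and 29.9 kb under DMSO. The peak nearest to ALDH1A2 (chromosome 15, 57953429 to 58065711) lay 83.4 kb away with ATRA+POM, 83.0 kb with POM, 245 kb in the ATRA-labelled list and 245 kb under DMSO. ALDH1A3 (chromosome 15, 100879831 to 100916626) had 1 peak with DMSO alone, at chr15:100922160-100922583 inside the neighbouring kinase gene LRRK1, with a fold enrichment of 7.08 and 44 reads. The nearest peak to ALDH1A3 lay 205 kb away with ATRA+POM, 154 kb with POM and 205 kb in the ATRA-labelled list.

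RefSeq start windows, from 250 bases before to 50 after a transcription start (GRCh38.p14), were available for 7 of the 9 genes, with 12 windows in all. TGM2 and PLAAT4, which carry the peaks on gene bodies, are not among them. None of the 12 windows held a peak in any list, against 35.2% of all 34961 start windows. By list, 23.2% of all windows held a peak with ATRA+POM, 30.6% with POM, 22.8% in the ATRA-labelled list and 33.7% under DMSO. The 12 windows had a median of 8.5 CpG dinucleotides, against 14 over all windows, and ranged widely. ALDH1A3 had 46 in its window, the upper ALDH1A2 start 41, LRAT 32 and RARRES1 28. Over all windows the median was 26 for those with a peak and 6 for those without. Of the windows with at least 28 CpG, a bound chosen after the values were seen, 59.0% held a peak, and none of the 4 among the genes did. The windows of CRABP2, of the uppermost STRA6 start and of ALDH1A3 are shown, since they are the starts with a receptor hexamer nearest to a peak, with the most receptor hexamers and with the most CpG among the genes. Each is on the strand of its gene. Capitals mark, in CRABP2 and STRA6 and on either strand, the receptor hexamer in any of its searched spellings. These were AGGTCA with its variant GGGTCA, and also AGTTCA with its variant GGTTCA. In ALDH1A3 they mark GGGCGG on either strand.
CRABP2 (minus strand, chr1:156705735-156706034): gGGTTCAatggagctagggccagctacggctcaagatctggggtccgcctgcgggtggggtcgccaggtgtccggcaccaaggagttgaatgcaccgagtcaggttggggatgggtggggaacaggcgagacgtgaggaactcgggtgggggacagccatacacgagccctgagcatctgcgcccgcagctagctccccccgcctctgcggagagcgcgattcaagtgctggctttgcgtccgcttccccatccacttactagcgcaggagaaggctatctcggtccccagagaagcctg
STRA6 (minus strand, chr15:74212210-74212509): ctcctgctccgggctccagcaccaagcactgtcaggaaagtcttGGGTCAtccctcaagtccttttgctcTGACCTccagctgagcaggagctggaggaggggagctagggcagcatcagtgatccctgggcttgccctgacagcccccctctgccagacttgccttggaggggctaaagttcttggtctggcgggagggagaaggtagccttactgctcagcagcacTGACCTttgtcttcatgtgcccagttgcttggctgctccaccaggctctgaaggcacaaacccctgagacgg
ALDH1A3 (plus strand, chr15:100879581-100879880): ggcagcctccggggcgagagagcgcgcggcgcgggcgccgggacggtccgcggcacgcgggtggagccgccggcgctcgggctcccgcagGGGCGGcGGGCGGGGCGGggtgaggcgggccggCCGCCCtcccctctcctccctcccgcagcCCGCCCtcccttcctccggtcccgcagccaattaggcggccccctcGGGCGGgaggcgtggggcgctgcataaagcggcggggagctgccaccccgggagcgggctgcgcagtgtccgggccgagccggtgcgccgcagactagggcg

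Counted from the transcription start, the receptor hexamer of CRABP2 begins at -249 and those of the STRA6 window at -206, -180 and -22. In all, 4 of the 12 windows held such a hexamer, against 38.6% of all start windows. No window held a direct repeat of it with a spacer of 1, 2 or 5 bases, which 0.132%, 0.0400% and 0.0887% of all windows do. GGGCGG was found in 5 of the 12 windows, against 45.03% of all windows, and CCAAT in 6, against 34.6%. TATAAA was found in 1, against 11.5%. The E-box CACGTG was in none, against 7.27% of all windows. The AP-1 motif TGACTCA was in none, against 4.92%, and TGGGAA likewise, against 24.0%. All were searched on both strands, and a hexamer within a repeat counts as a hexamer too. The windows of the STRA6 starts at chr15:74202738-74203037 and chr15:74203008-74203307 share bases.

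The ATRA-labelled list was compared with DMSO for the retinoid alone, as far as its label holds. No gene had more peaks in it, against 15.9% of all genes, and PLAAT4, LRAT and ALDH1A3 had fewer, against 41.9%. LRAT and ALDH1A3 had a peak with DMSO and none in the ATRA-labelled list, against 9.91% of all genes, and no gene had the reverse, against 0.0501%. Both ATRA-labelled peaks at the 9 genes, in PLAAT2 and ISG20L2, overlapped a DMSO peak. Their log2 ratios of fold enrichment were -0.93 in PLAAT2 and 0.42 in ISG20L2, beside a median of -0.42 over all 25095 such regions, and the second is above 97.1% of them. Neither was 1 or more above that median, as 1.36% of all regions were, or 1 or more below it, as 2.99% were. Each fold has 1 added to reads and to background, which lowers it more where background is small. Under DMSO the PLAAT2 peak had a background of 11.7 reads, against 1.61 under the ATRA label. At ISG20L2 the backgrounds were 17.6 and 2.45. Taking reads over background without the added 1, both ratios keep their sign. The PLAAT2 ratio is then smaller in size and the ISG20L2 ratio larger. The median over all regions without the added 1 was not computed. The difference over the 9 windows was -11 peaks, and -2 without PLAAT4, a choice made after seeing the data. The depth of 0.133, the labelled treatment and a list that does not belong to its label cannot be told apart here.

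POM was compared with DMSO for the drug alone. TGM2 had more peaks with POM, against 29.0% of all genes, and it was also the 1 gene with a peak in POM and none in DMSO, against 4.18%. PLAAT4, LRAT and ALDH1A3 had fewer, against 26.1%, and LRAT and ALDH1A3 had a peak with DMSO alone, against 3.14%. At the 6 regions called in both lists the log2 ratio of fold enrichment ran from -0.63 to 0.43, and over all 32829 such regions its median was 0.084 with quartiles of -0.46 and 0.65. No region of the 9 genes was 1 or more above or below that median, which 13.1% and 11.7% of all regions were. The lower end of PLAAT4 had a ratio of -0.02, and of 0.43 with the mean of the 3 DMSO peaks in place of the strongest. The latter sets 1 unsplit POM peak against a mean of split peaks.

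ATRA+POM was compared with DMSO for both compounds together. TGM2 had more peaks and a peak with ATRA+POM alone, against 24.0% and 3.04% of all genes. PLAAT4 and ALDH1A3 had fewer, against 36.2%, and ALDH1A3 a peak with DMSO alone, against 7.75%. With peaks within 500 bp merged, PLAAT4 had 6 with ATRA+POM and 5 with DMSO, so it no longer had fewer. The difference of -2 peaks over the 9 windows turned to 2 when peaks within 500 bp were merged. It turned to 1 on gene bodies alone, with 5 kb on both sides, with an equal number of peaks from each list, and without PLAAT4, so its direction depended on these choices, the last of them made after seeing the data. At the 7 regions called in both, the log2 ratio of fold enrichment ran from -0.70 to 0.89. Its median over all 26253 regions was -0.56. The lower end of PLAAT4 had 0.89, which is 1.45 above that median and above 91.0% of regions of the same kind. With the mean of the 3 DMSO peaks in place of the strongest its ratio was 1.33. That sets 1 unsplit ATRA+POM peak against a mean of split peaks, so the measures are unlike. A region in PLAAT2 had 0.50, which is 1.06 above it. A distance of 1 or more above the median held for 16.0% of all regions, and 1 or more below for 12.7%, which held for none here. LRAT had 0.38, which is 0.94 above the median.

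ATRA+POM was compared with POM for what the retinoid added to the drug. TGM2, PLAAT4 and LRAT had more peaks with ATRA+POM, against 19.5% of all genes, and none had fewer, against 36.5%. LRAT had a peak with ATRA+POM and none with POM, against 1.05%, and no gene had the reverse, against 6.78%. At the 7 regions called in both, the ratio ran from -0.61 at CRABP2 to 0.91 at the lower end of PLAAT4, and its median over all 31667 regions was -0.66. The PLAAT4 value was 1.56 above that median and above 97.3% of regions. A weaker region in PLAAT2 had 0.35, which is 1.01 above it. Such a distance held for 10.2% of all regions, and the same distance below for 8.14% and for none here. The shared TGM2 region had -0.19, which is 0.46 above the median.

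**Figure D3:**
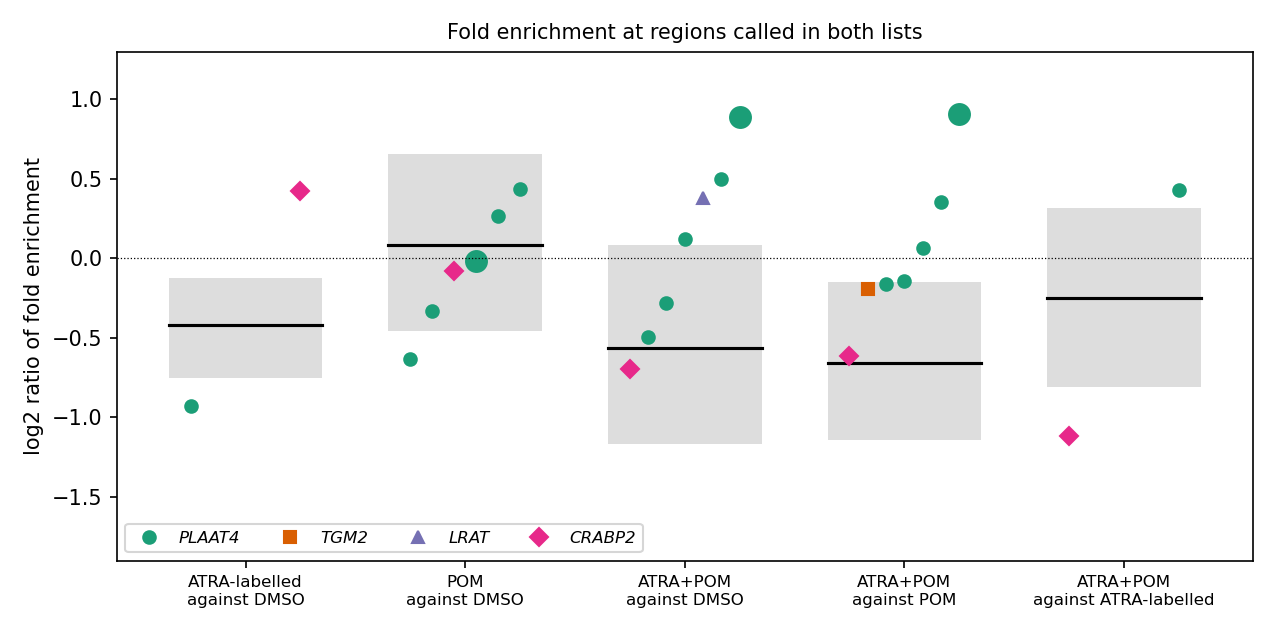
Log2 ratio of the authors' fold enrichment (y axis) at regions called in both lists of each comparison (x axis), with 1 point per region of the 9 genes. Grey bars span the quartiles and black lines the median over all regions called in both lists. The large points mark the lower end of PLAAT4, at 0.89 for ATRA+POM against DMSO and 0.91 against POM, above the grey bars, and at -0.02 for POM against DMSO.

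The ATRA-labelled library was also set against ATRA+POM, for what the drug added to the retinoid. TGM2, PLAAT4 and LRAT had more peaks with ATRA+POM, against 31.7% of all genes, and none had fewer, against 21.3%. TGM2 and LRAT had a peak with ATRA+POM alone, against 8.00%, and none had the reverse, against 2.84%. The regions called in both were the PLAAT2 peak, with a log2 ratio of 0.43, and the ISG20L2 peak near CRABP2, with -1.12, beside a median of -0.25 over 19746 regions. Neither was 1 or more above or below that median, as 12.8% and 12.2% of all regions were. Here too the 1 added in each fold weighs more at low depth. With ATRA+POM the PLAAT2 peak had 107 reads over a background of 9.46. Under the ATRA label it had 19 reads over 1.61. At ISG20L2 the backgrounds were 12.7 and 2.45. Reads over background without the added 1 were slightly lower with ATRA+POM than under the ATRA label at PLAAT2. The positive sign of the PLAAT2 ratio therefore does not hold without it. At ISG20L2 the ratio stays negative. All these comparisons reuse the same 4 lists, so their counts are not separate evidence.

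Over the 4 lists the peaks at the 9 genes merged into 15 regions, of which 2 were called in all lists, against 28.8% of all merged regions. Another 4 were called with ATRA+POM, POM and DMSO, against 8.62%. The TGM2 region was called with ATRA+POM and POM, against 9.60%, and the LRAT region with ATRA+POM and DMSO. With DMSO alone 4 were called, against 16.3%, and with ATRA+POM alone 3, against 5.23%.

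The other retinoid genes, a list of 39 counted by the same 20 kb rule, had more peaks per window than the means of the 9 genes, which were 1.22 with ATRA+POM, 0.778 with POM, 0.222 in the ATRA-labelled list and 1.44 under DMSO. Their mean was 3.38 peaks per window with ATRA+POM, 3.33 with POM, 2.03 in the ATRA-labelled list and 2.85 under DMSO. Over all genes the mean was 2.80 with ATRA+POM, 3.21 with POM, 2.46 in the ATRA-labelled list and 3.09 under DMSO, so the 39 lie above it with ATRA+POM and POM and below it in the others. The carriers beside CRABP2 and STRA6 had a peak at 3 of 6 genes in every list, with none at RBP2, RBP4 and CRABP1. The clearance enzymes, which degrade or reduce retinoids, had a peak at 4 of 4 genes with ATRA+POM (67.9% of all genes), at 3 with POM (73.7%), at 0 in the ATRA-labelled list (62.8%) and at 2 with DMSO (72.6%). CYP26A1 and CYP26C1 share their peaks, so these are not 4 separate loci. The receptor genes differed widely. RARB had 22 peaks with ATRA+POM, 23 with POM, 13 in the ATRA-labelled list and 18 under DMSO, and RARG had 20 with ATRA+POM, 15 with POM, 8 in the ATRA-labelled list and 15 under DMSO. RXRG had 1 with ATRA+POM, 1 with POM, 0 in the ATRA-labelled list and 2 under DMSO, and RXRB had none in any list.

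With ATRA+POM against DMSO, 14 of the 39 genes had more peaks and 12 fewer, against 24.0% and 36.2% of all genes. A peak with ATRA+POM and none with DMSO was found at 3 of the 39, against 3.04% of all genes. These were HOXB4, a homeobox gene (strongest fold enrichment 23.7), DHRS3, a retinaldehyde reductase (17.5), and CYP26B1, which degrades retinoic acid (7.44). The reverse was found at 5, against 7.75%. The strongest of the 5 by -log10 q were ICAM1, an adhesion molecule (16.1 with DMSO), DHRS9, a retinol dehydrogenase (8.42), STRA8, a germ cell gene (10.2), and HOXA5, a homeobox gene (11.01). With POM against DMSO 14 had more and 11 fewer, against 29.0% and 26.1% of all genes. HOXB4 (49.3) and DHRS3 (9.33) had a peak with POM alone, against 4.18% of all genes. DHRS9, HOXA5 and ADH4, an alcohol dehydrogenase (4.21), had one with DMSO alone, against 3.14%. With ATRA+POM against POM 12 had more and 11 fewer, against 19.5% and 36.5% of all genes. CYP26B1 had a peak with ATRA+POM alone, against 1.05% of all genes, and ICAM1 (16.5) and STRA8 (8.70) with POM alone, against 6.78%. With ATRA+POM against the ATRA-labelled list 14 had more and 7 fewer, against 31.7% and 21.3% of all genes. A peak with ATRA+POM alone was found at 7 of the 39 genes, against 8.00% of all genes. The strongest were at CYP26A1 and CYP26C1 (44.3), which share their peaks, HOXB4 and CEBPE, a myeloid transcription factor (25.5). ICAM1 (8.81) and DHRS9 (7.68) had a peak in the ATRA-labelled list and none with ATRA+POM, against 2.84% of all genes. In the ATRA-labelled list against DMSO 6 had more and 16 fewer, against 15.9% and 41.9% of all genes. None had a peak in it alone, against 0.0501% of all genes, and 7 had one with DMSO alone, against 9.91%. The strongest of the 7 were at STRA8, HOXA5, RXRG and CEBPE. The median difference was 0 in each comparison.

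**Figure D4:**
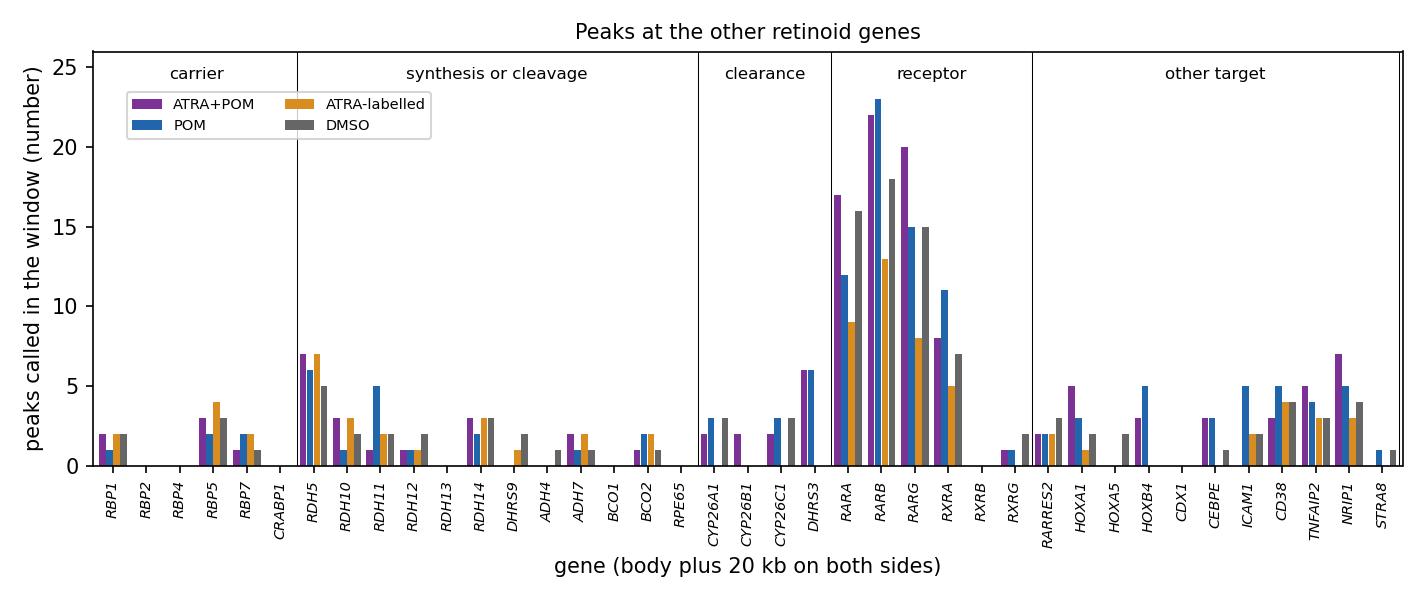
Number of peaks in the window of each of the 39 other retinoid genes (y axis), grouped by role along the x axis, with 1 bar for each of the 4 libraries. The receptor genes RARA, RARB and RARG hold the most peaks, RXRB holds none, and CYP26A1, CYP26B1, CYP26C1 and DHRS3 are at 0 in the ATRA-labelled list.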

How the data were processed

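Peaks of 4 ChIP-seq libraries of OPM-2, 1 per treatment, were analysed, with groups taken from the sample titles. Libraries were made for nanoball sequencing per the labels' protocols, and hg38 is the build that the submitters' processing notes name. Aligner, peak caller, versions and antibody: not given in the sources used here.

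The authors deposited 1 peak list per ChIP library. Each deposited peak has a score that follows its -log10 p. The deposited fold enrichment was taken as a ratio of summit to background. The sources used here do not say whether that background came from the ChIP library itself or from its input. If it came from the input, the fold also carries the counting error of the input. No scaling by the authors between treatments is given in these sources. The -log10 p and -log10 q are the authors' own values, and the lowest -log10 p in the lists was 5.02. Sequencing depth is not stated. Reads at a summit were solved from fold, taken as reads plus 1 over background plus 1, and a Poisson p. Where a solution was not whole within 0.02 reads, the whole number with the nearest p was taken if that p was close. After that step 100.0% of the summits solved in each list were whole within 0.02 reads. That share is partly set by the step, so it is no check of the formula. The added 1 lowers a fold more where background is small, as under the ATRA label. Ratios of fold and their medians over all regions were not corrected for it. Summits with a -log10 p of 290 or more were not solved and count as higher in the medians. Relative depth came from the lowest background value found at least 500 times and the smallest peak width. Reads and depths are inferences.

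Peaks on chromosomes 1 to 22 and X that overlapped a gene body plus 20 kb by at least 1 bp were counted, also for all 19970 RefSeq protein-coding genes in the table (GRCh38.p14). Peaks of any list that share bases form 1 region, and the strongest fold of a list stands for it. Start windows and sequences are from RefSeq. The 9 genes, the 39 further retinoid genes, the markers and the motifs were chosen with earlier results of these data known. Named are the 9 genes, the genes under their peaks, and up to 4 of the 39 per comparison and direction, those with the strongest -log10 q among genes with a peak in 1 list alone. RARA, RARB, RARG, RXRB and genes at 0 were named after their values were seen. Alternatives were other window sizes, overlaps and peak thresholds, an equal number of peaks, merging within 500 bp, other summaries of fold and leaving out PLAAT4. Overlap counts, merging and read recovery were tested on simulated data, the first 2 against bedtools 2.31.1. The software was pandas 2.3.3, scipy 1.17.1, matplotlib 3.10.9 and numpy 2.4.6 under Python 3.11.15.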

Additional observations from a re-analysis of the deposited data

Results flagged for a closer look

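The change in peaks with a compound had opposite signs with and without the other compound at 2 of the 9 genes, and at 19.2% of all 19970 genes, so the share of the 9 is near that of all genes. At PLAAT4, ATRA+POM minus POM was 2 peaks and ATRA-labelled minus DMSO was -9. For the drug at PLAAT4, ATRA+POM minus ATRA-labelled was 6 and POM minus DMSO was -5. At LRAT, ATRA+POM minus POM was 1 peak and ATRA-labelled minus DMSO was -1, and for the drug ATRA+POM minus ATRA-labelled was 1 and POM minus DMSO was -1. The values at PLAAT4 moved with the counting. With peaks within 500 bp merged, ATRA-labelled minus DMSO was -4 and POM minus DMSO was -1. On the gene body alone ATRA+POM minus POM was 0 at PLAAT4, so the signs for the retinoid were no longer opposite, and LRAT had no peak in any list. Each group is 1 library, so these differences were not tested. The ATRA-labelled library, at 0.133 of the DMSO depth, enters every one of these pairs.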

How the results depend on the processing

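No paired analysis was possible because each treatment has 1 ChIP library. Per-list counts are given for ATRA+POM, POM, ATRA-labelled and DMSO, and differences over the 9 windows were -11 for ATRA-labelled minus DMSO, -6 for POM minus DMSO, -2 for ATRA+POM minus DMSO, 4 for ATRA+POM minus POM and 9 for ATRA+POM minus ATRA-labelled. On gene bodies alone the counts were 3, 2, 0 and 2 and the differences -2, 0, 1, 1 and 3. With 5 kb on both sides the counts were 7, 3, 0 and 6 and the differences -6, -3, 1, 4 and 7. With 50 kb they were 26, 19, 14 and 34, and -20, -15, -8, 7 and 12. Without PLAAT4, added after seeing the data, they were 4, 2, 1 and 3, and -2, -1, 1, 2 and 3. With the 36742 strongest peaks of each list DMSO had 8 and the first 3 differences were -6, -3 and 1. With peaks within 500 bp merged DMSO had 8 and these were -6, -2 and 2. With a fold enrichment of at least 5, ATRA+POM minus DMSO was -1. The turn of ATRA+POM minus DMSO with merging shows in PLAAT4, where 10 DMSO peaks became 5. For the other settings the cause was not tested. A -log10 q of at least 10 and an overlap of 50% of the peak left every count as it was, and the 15 regions became 11 when merged within 500 bp.

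The median log2 ratio of fold enrichment at shared regions of the 9 genes, relative to that over all regions, was 0.16 for ATRA-labelled against DMSO (-0.25 as given, 2 regions), 0.68 for ATRA+POM against DMSO (0.12, 7 regions), 0.52 for ATRA+POM against POM (-0.14, 7 regions) and -0.095 for ATRA+POM against ATRA-labelled (-0.34, 2 regions). For POM against DMSO the value relative to all regions was -0.13 (-0.05 as given, 6 regions). With the mean fold of a region's peaks in place of the strongest, the ratio as given turned to 0.090. The values that involve the ATRA-labelled list were not corrected for the 1 added to reads and background in each fold. At the ATRA-labelled depth, 9 of the 10 DMSO peaks at PLAAT4 would fall under that list's 10th percentile of summit reads. That percentile is not the limit of calling, since the list's minimum was 5 reads. The 9 ran from 3.98 to 9.03 reads, and only the lowest was under 5. The part of depth in the difference was not tested.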
